A study of Mus musculus with 9 samples.

Results

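Iron handling was followed through 10 genes that reduce, import, export, store or sense iron in splenic regulatory T cells (Treg cells). The members were taken by symbol: Cybrd1, Steap3, Tfrc, Slc11a2, Slc40a1, Slc25a37, Fth1, Ftl1, Aco1 and Ireb2, which are 10 of the 26683 genes in the count table. RNA of sorted CD4-positive, Foxp3-YFP-positive spleen cells was sequenced in bulk, with 1 library per mouse. The 5 control libraries (WT) came from B6N.Foxp3YFP-Cre mice, and the 4 knockout libraries (KO) from EsrrgNf/f.Foxp3YFP-Cre mice, labelled female and 2 to 3 months old. Both groups therefore carried the Cre recombinase fused to the YFP reporter and driven by Foxp3, the lineage factor of Treg cells, and the groups differed by the floxed Esrrg alleles, which encode the nuclear receptor estrogen-related receptor gamma. The library names begin with B6-N in WT and with Err in KO, so a difference of strain or colony cannot be told apart from genotype. The comparison asks whether transcripts of iron genes differ where Cre acts on floxed Esrrg.

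T cells take up iron mainly as transferrin bound to the transferrin receptor. In the endosome the metal is released, reduced from the ferric to the ferrous form and moved to the cytosol, where it is used, passed to mitochondria, stored in ferritin or exported. The iron-regulatory proteins, encoded by Aco1 and Ireb2, bind a hairpin called the iron-responsive element when iron is scarce: in the 5′ untranslated region (UTR) of a transcript this blocks translation, and in the 3′ UTR it protects the transcript from decay. RNA counts report the second kind of control and not the first.

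The iron-responsive elements are shown because they mark the members whose transcripts are known targets of this control. UTRs of the GENCODE M21 transcripts (mm10) were searched on the transcript strand for an unpaired C, 5 stem bases, the loop CAGTGN with a last base other than G, and 5 stem bases that pair with the first, with G-T pairs allowed. Of 21901 protein-coding genes, 23 (0.105%) held such a match in a 5′ UTR and 100 (0.457%) in a 3′ UTR. Of the members, 4 held full matches: Fth1, Ftl1 and Slc40a1 held 1 each in the 5′ UTR, and Tfrc held 4 in the 3′ UTR. Each match is printed 5′ to 3′ over 29 bases, with the loop in capitals.
Fth1, 5′ UTR, chr19:9982732-9982760, plus strand: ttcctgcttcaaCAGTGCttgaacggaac
Ftl1, 5′ UTR, chr7:45459779-45459807, minus strand: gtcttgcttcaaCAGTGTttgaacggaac
Slc40a1, 5′ UTR, chr1:45925465-45925493, minus strand: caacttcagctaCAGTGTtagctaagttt
Tfrc, 3′ UTR, chr16:32631219-32631247, plus strand: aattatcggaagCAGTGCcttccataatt
Tfrc, 3′ UTR, chr16:32631598-32631626, plus strand: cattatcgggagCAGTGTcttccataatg
Tfrc, 3′ UTR, chr16:32631663-32631691, plus strand: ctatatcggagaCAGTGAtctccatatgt
Tfrc, 3′ UTR, chr16:32631710-32631738, plus strand: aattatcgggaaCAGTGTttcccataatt

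The transporter gene Slc11a2 held the loop letters at 4 places in its 3′ UTRs, none of them with all 5 stem pairs. The best of these, in an alternative transcript (chr15:100395153-100395181, minus strand), had 4 of 5 pairs, and is shown because a known form of this gene's transcript carries an element with an imperfect stem.
Slc11a2, 3′ UTR, loop match with 4 stem pairs: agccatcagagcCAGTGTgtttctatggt
No full match and no loop match was found in UTRs of Cybrd1, Slc25a37 or Aco1, which says only that these letters were not in these UTRs.

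Depth was even, from 15269014 counts in WT 4 to 17425634 in KO 1, and 3 counts, taken as the limit of detection, equalled 0.171 to 0.197 CPM (the count scaled to library size with trimmed-mean factors). The targeted gene could not check the labels, because Esrrg had 0 counts in all 9 libraries. Foxp3, at 532 to 601 CPM, and 8 summed Treg markers, at 4864 to 5131 CPM in WT and 4843 to 5205 in KO, overlapped between the groups. Within that sum genes went both ways. Cd3e (490 to 503 CPM in WT, 513 to 547 in KO) and Cd3g (464 to 504, 505 to 544) did not overlap, like 9.07% of all tested genes. Il2ra was at 845 ± 76.5 CPM in WT and 748 ± 38.9 in KO (SD), with overlap. Some libraries stood apart. KO 1 and KO 4 held more transcripts of other cells than the rest: plasma cell markers summed to 2587 and 6604 CPM there against 927 to 1453 elsewhere, and neutrophil markers (8 genes, 5 of them at 0 in some library) to 40.8 and 133 against 1.80 to 6.56. B cell markers reached 34.3 and 29.2 CPM there against 18.7 to 24.6 elsewhere, dendritic cell markers 7.63 and 9.86 against 2.88 to 7.12, and CD8 T and NK cell markers were at 19.8 to 24.0 in all 9 libraries. Single plasma cell markers were above WT in KO 3 as well: Ighg2b at 23.2 CPM against 2.24 to 8.50, and Ighg2c at 47.7 against 2.30 to 14.2. WT 1 held 5932 CPM of activation and dissociation genes (Fos, Jun, Egr1 and others) against 1092 to 1643 elsewhere. Not all genes of that list were high in WT 1: Egr2, at 47.5 CPM, was lower there than in any other library, and Myc, at 160 CPM, lay inside the range of the others. KO 4, although labelled female, had 27 counts of Xist, the non-coding RNA of the inactive X, against 27355 to 35693 elsewhere. Its 2 counts of Y-linked genes stood beside 23 in WT 2 and 3 in WT 5. Where leaving out the libraries that stood apart turned the value of a named iron gene or ended its call, both values are given. Shifts in size alone are given for some genes only, so their absence does not mark a stable value. In bulk samples, fewer cells of a type and less RNA per cell cannot be told apart.

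Of the 10 members, 9 entered the test across all genes, and Steap3 fell below its filter on low counts. Of these 9, 1 was called, Cybrd1, lower in KO. Over all 12738 genes tested, 3.28% were called by edgeR's quasi-likelihood test at an adjusted p under 0.05 (1.88% lower and 1.40% higher in KO). The members were selected on their CPM per library in WT against KO, with this contrast known, so their count and values in it are a description. The median log2 fold change (KO over WT) of the 9 was 0.01, beside 0.0052 for all tested genes, and 5 of the 9 were above 0. The other 8 members had 0 calls with edgeR and limma-voom and 0 at an unadjusted p under 0.05 in edgeR, which 21.6% of all tested genes reached, and DESeq2, run without that filter, added Steap3. Among the marker lists above, 9 of 9 tested plasma cell markers, 2 of 3 neutrophil markers and 3 of 8 Treg markers reached that unadjusted p. In each of these lists edgeR and limma-voom called 0. DESeq2, run without the filter, called 4 plasma cell, 3 neutrophil and 0 Treg markers. Of the neutrophil calls (Elane, Mpo and S100a8), only Mpo had entered the edgeR test. Of the 10 activation and dissociation genes edgeR called Egr2 alone, higher in KO (59.2 to 70.0 CPM against 47.5 to 58.7 in WT, edgeR adjusted p = 0.0368). DESeq2 also called Egr2, and limma-voom called 1 gene of that list. The plot of CPM by mouse shows the values of the members.

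**Figure D1:**
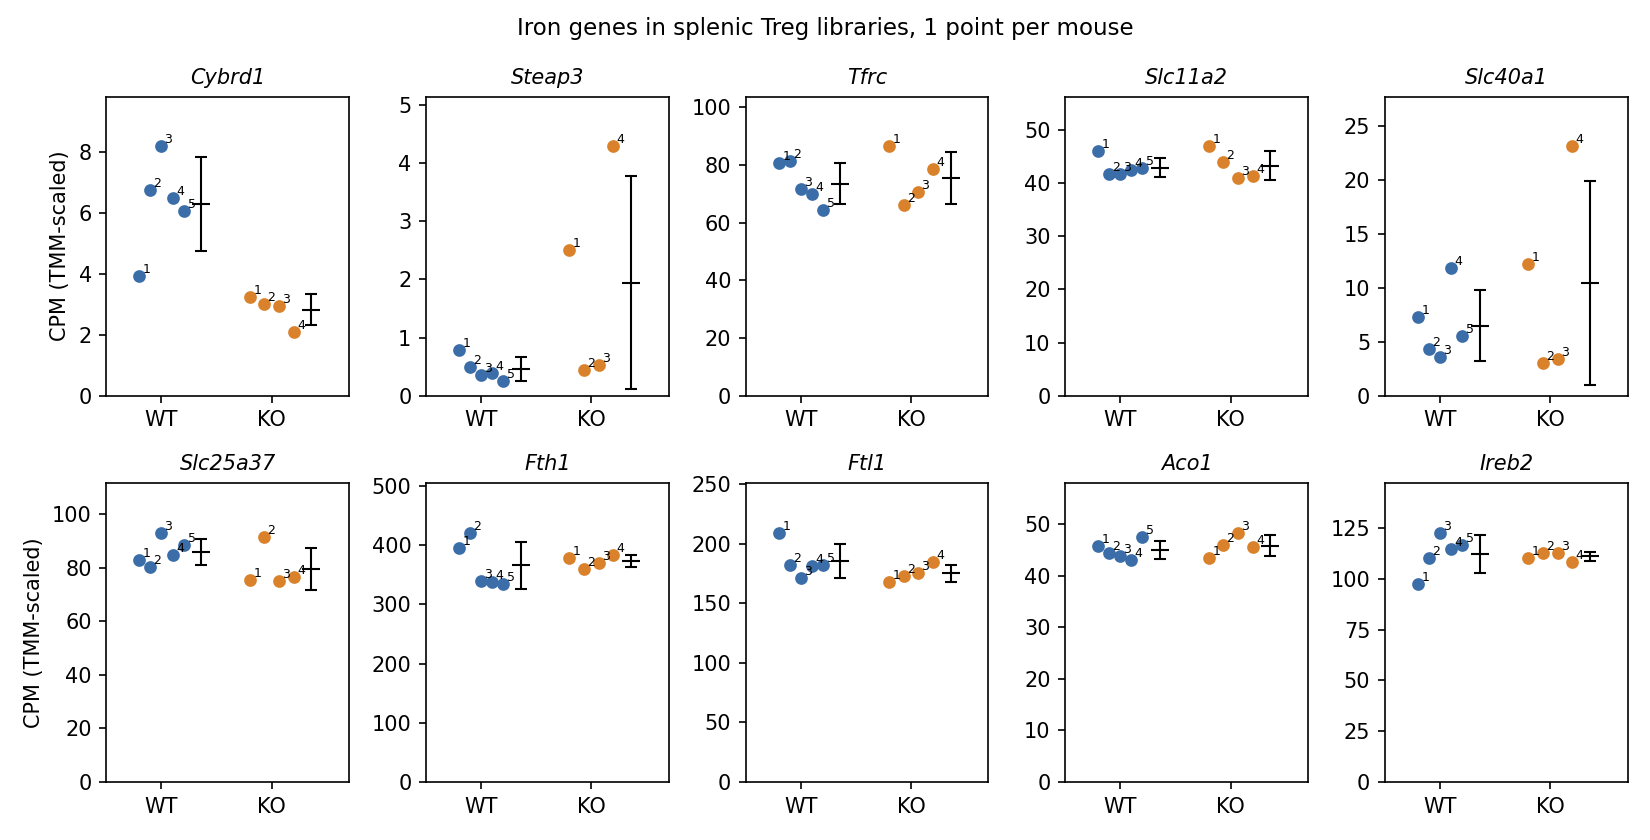
CPM of the 10 iron genes in each mouse (vertical axes, each from 0), with WT in blue, KO in orange, library numbers beside the points, and the mean with SD as a bar. The 4 KO values of Cybrd1 lie below the 5 WT values, and the groups overlap for each of the other genes, with Steap3 and Slc40a1 highest in KO 4 and KO 1.

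The ferric reductases come at the start of the path. Cybrd1 (duodenal cytochrome b, mm10 chr2:71117923-71142926, plus strand, 4 exons in its principal transcript) encodes a membrane reductase that uses ascorbate, known from iron uptake in the gut. It stood at 3.92, 6.78, 8.20, 6.50 and 6.07 CPM in WT 1 to WT 5. In KO 1 to KO 4 it stood at 3.24, 3.01, 2.95 and 2.08 CPM. Every KO library was below every WT library, with WT 1 nearest to the KO values. Of all tested genes, 9.07% had groups that did not overlap, 4.92% with KO below WT, and nothing is read from Cybrd1 being among them. Iron genes beyond the members, named below, were mostly taken by smallest p, so nothing is read from their groups not overlapping either. The mean of Cybrd1 was 6.29 ± 1.55 CPM in WT (SD, n = 5) and 2.82 ± 0.510 CPM in KO (SD, n = 4). The log2 fold change was -1.15 ± 0.21 (SE, 95% interval -1.60 to -0.71), which is 2.23-fold lower, with an edgeR adjusted p of 0.0143.

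Cybrd1 is a rare transcript, and its counts limit the precision of each library's value. There were 65, 112, 136, 99 and 97 counts in the WT libraries and 57, 47, 45 and 34 in the KO libraries. By counting error alone (exact 95% Poisson intervals, no molecular identifiers being mentioned), WT 1 ranged from 3.03 to 5.00 CPM and KO 1 from 2.46 to 4.20. These 2 intervals overlap, whereas those of WT 2 to WT 5 begin at 4.92 CPM or above, higher than the upper bound of any KO library. These intervals cover counting error in each library, not the spread between mice, and support nothing about a difference known when the genes were chosen.

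**Figure D2:**
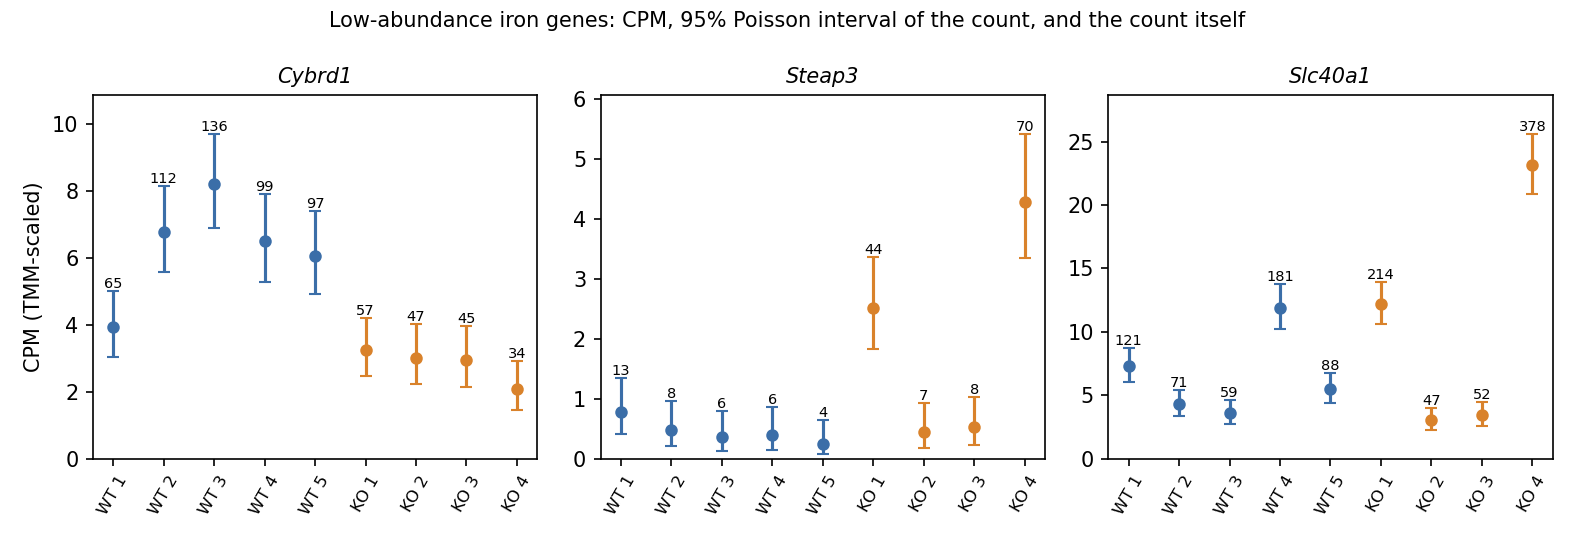
CPM of the 3 least abundant iron genes in each library (points, WT blue, KO orange), with the exact 95% Poisson interval of the count as a bar and the count printed above it. For Cybrd1 the interval of WT 1 reaches down into those of the KO libraries, while for Steap3 and Slc40a1 KO 4 stands above each other library.

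Cybrd1 was also read against the libraries that stand apart. KO 2 and KO 3, whose plasma cell and neutrophil marker sums were near the WT range, had a mean of 2.98 CPM, and both lay below each WT library. Leaving out each of the 9 libraries in turn kept the gene called, with log2 fold changes of -1.29 to -1.03 and edgeR adjusted p of 0.00405 to 0.0480. The call was lost without KO 1 and KO 4 together, at -1.08 with an edgeR adjusted p of 0.0778, and held when WT 1 was left out as well, at -1.21 with 0.00724. WT 1, the library with high activation and dissociation genes, had the lowest Cybrd1 of WT. KO 2, with the lowest macrophage and monocyte marker sum of all libraries (28.7 CPM), had 3.01 CPM of Cybrd1, and WT 2, with a sum of 29.2 CPM, had 6.78. These 2 sums were not made of the same genes: Lyz2 was at 9.94 CPM in KO 2 and 2.85 in WT 2. Adgre1, Cd68 and Fcgr1 were also higher in KO 2, and the other macrophage and monocyte markers, such as Vcam1 (3.27 and 5.39 CPM), were lower in KO 2. The part of these cells in the Cybrd1 values was not tested.

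Steap3 (chr1:120190757-120272705, minus strand, 6 exons) encodes the endosomal ferrireductase of the transferrin cycle, known from red cell precursors. It stood at 0.785, 0.484, 0.362, 0.394 and 0.250 CPM in WT 1 to WT 5, which are 4 to 13 counts. KO 1 had 2.50 CPM (44 counts) and KO 4 had 4.29 CPM (70 counts), but KO 2 with 0.449 and KO 3 with 0.524 CPM (7 and 8 counts) lay within the WT range. The KO mean of 1.94 ± 1.83 CPM (SD, n = 4) against 0.455 ± 0.202 in WT (SD, n = 5) therefore rested on 2 libraries, and without them the KO mean was 0.487 CPM. Without the filter on low counts edgeR gave a log2 fold change of 2.08 with an adjusted p of 0.223, and DESeq2 gave 2.09 with an adjusted p of 0.0446. Erythroid markers (9 genes, 2 of them at 0 in some library) summed to 34.2 CPM in KO 1 and 37.4 in KO 4, against 3.14 to 16.9 in the other libraries. In KO 4, Ermap made up 15.9 CPM of the sum. There Hba-a1 (3.00 CPM), Hbb-bs (5.76) and Hbb-bt (0.980) lay inside the WT range, and the other erythroid markers lay above it. In KO 1, Hba-a1 alone lay inside the WT range. Of the 9 erythroid markers 5 entered the test, and 0 were called by edgeR or limma-voom. DESeq2, run without the filter on low counts, called Klf1, which had not entered the edgeR test. The part of erythroid cells in the Steap3 values was not tested.

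Other genes with reductase folds of the Steap, cytochrome b561 and Frrs1 families were looked at as relatives. Of 8 listed, 5 entered the test and 0 were called by edgeR, DESeq2 or limma-voom, with 0 at an unadjusted edgeR p under 0.05. Steap4 had 0 counts in all libraries, and Steap1 and Steap2 had counts in WT 2 alone and WT 3 alone, at most 0.484 CPM. The 2 with the smallest p were Cyb561a3, a lysosomal reductase (20.2 ± 0.618 CPM in WT and 22.7 ± 2.92 in KO, log2 fold change 0.17 ± 0.08, edgeR adjusted p = 0.240), and Cyb561, the reductase of secretory vesicles (0.563 ± 0.237 and 0.929 ± 0.335 CPM, 0.72 ± 0.37, adjusted p = 0.279). Without KO 1 and KO 4 the value of Cyb561 was 0.26. Cyb561a3 was highest in KO 1 (25.4 CPM) and KO 4 (24.98 CPM), and at 19.7 and 20.8 CPM in KO 2 and KO 3 against 19.4 to 20.9 in WT, and its value without KO 1 and KO 4 was -0.0011. Log2 fold changes of the 5 tested relatives ran from -0.08 to 0.72, beside -1.15 for Cybrd1.

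**Figure D3:**
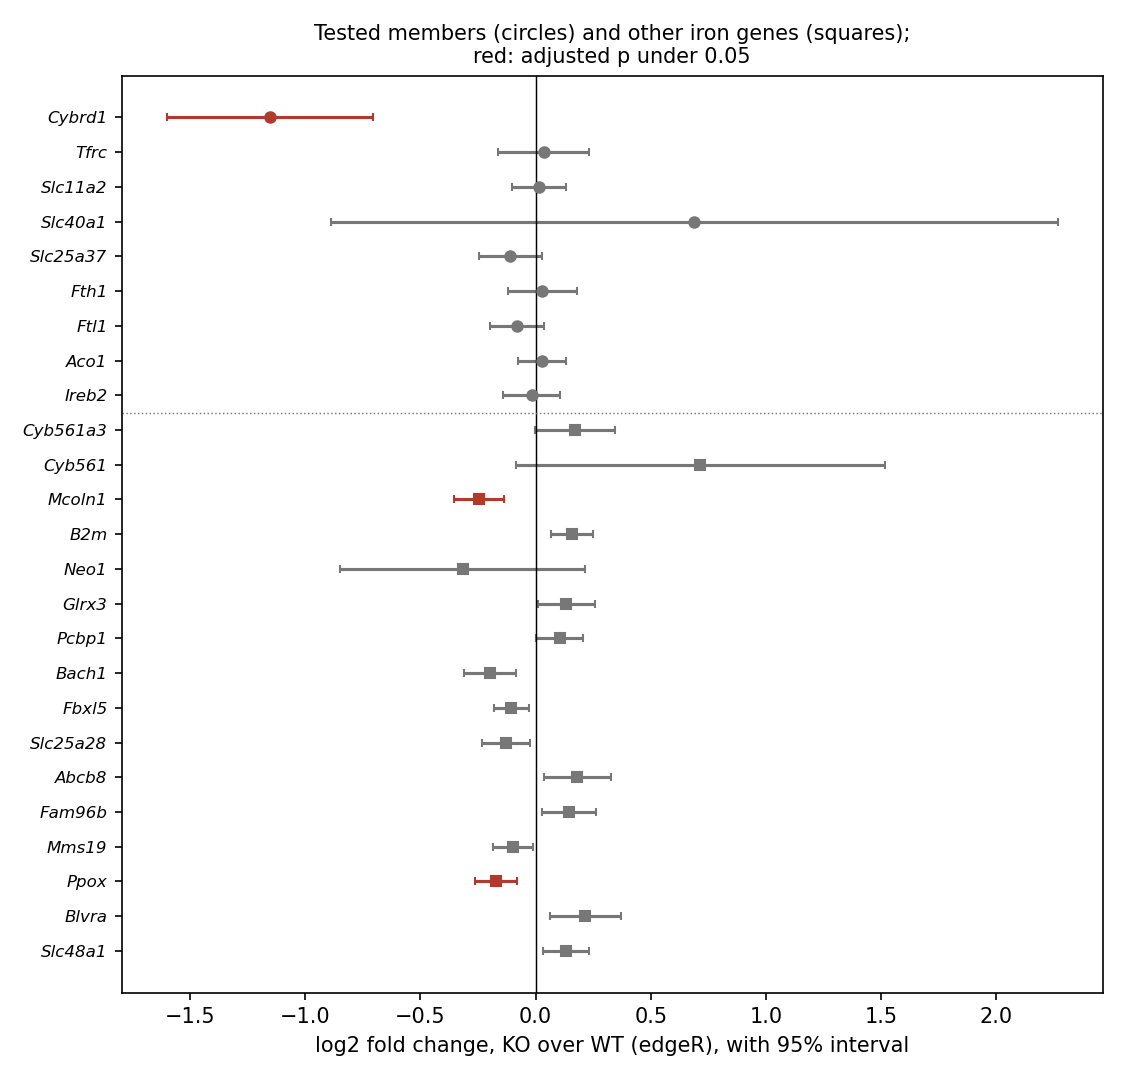
Log2 fold change, KO over WT, with the 95% interval from the edgeR fit (horizontal axis) for the 9 tested iron genes (circles) and 16 further iron genes taken by rule (squares), those with an adjusted p under 0.05 in red. Cybrd1 at -1.15, Mcoln1 at -0.25 and Ppox at -0.17 are red, and Slc40a1 has the widest interval, from -0.89 to 2.27.

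The uptake genes held similar levels in both groups. Tfrc (chr16:32608920-32632794, plus strand, 19 exons) encodes the transferrin receptor, and its 3′ UTR carries the 4 elements printed above. It stood at 80.6, 81.3, 71.7, 70.1 and 64.3 CPM in WT 1 to WT 5 and at 86.5, 66.2, 70.5 and 78.6 CPM in KO 1 to KO 4. The groups overlapped, and KO 1 was the highest of all libraries. Means were 73.6 ± 7.23 CPM in WT (SD, n = 5) and 75.4 ± 8.99 in KO (SD, n = 4), and the log2 fold change was 0.04 ± 0.09 (SE) with an edgeR adjusted p of 0.851. Its 95% interval, -0.16 to 0.23, leaves room for changes of that size in either direction. Proliferation markers (12 genes, 0 of them at 0 in any library) summed to 971 CPM in KO 1 and 1112 in KO 4. KO 2 had 565 CPM and KO 3 had 628, WT 2 had 733, and the other WT libraries had 415 to 493. Of these markers 8 had an unadjusted edgeR p under 0.05, beside 21.6% of all tested genes. By edgeR 0 were called, and DESeq2 called Mcm5 and Tyms. Without KO 1 and KO 4 the log2 fold change of Tfrc was -0.11, with an edgeR adjusted p of 0.627, and the part of proliferation in its values was not tested.

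Slc11a2 (chr15:100387898-100425072, minus strand, 17 exons) encodes the divalent metal transporter that carries ferrous iron across the endosomal membrane. It stood at 46.1, 41.7, 41.7, 42.4 and 42.8 CPM in WT 1 to WT 5 and at 47.0, 44.05, 40.9 and 41.4 CPM in KO 1 to KO 4. WT 1 and KO 1 were the highest of their groups, and the groups overlapped. The log2 fold change was 0.01 ± 0.05 (SE), with a 95% interval of -0.10 to 0.13 and an edgeR adjusted p of 0.917. Reads of Slc11a2 could include those of Gm5475, which overlaps it on the other strand, since no source used here states whether the counting used strand.

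In the wider list of iron and transferrin uptake, 7 of 10 genes entered the test and 1 was called, lower in KO. This was Mcoln1, the lysosomal cation channel that releases iron from endosomes and lysosomes. It stood at 66.9, 58.6, 68.0, 63.2 and 64.8 CPM in WT 1 to WT 5 and at 53.4, 56.9, 53.6 and 53.2 CPM in KO 1 to KO 4. All KO libraries were below all WT libraries, as for 4.92% of all tested genes, with WT 2 and KO 2 nearest to each other. Means were 64.3 ± 3.67 CPM in WT (SD, n = 5) and 54.2 ± 1.76 in KO (SD, n = 4), and the log2 fold change was -0.25 ± 0.05 (SE) with an edgeR adjusted p of 0.0225. It stayed called in 4 of the 9 fits that left out 1 library (-0.28 to -0.22, edgeR adjusted p 0.00909 to 0.0802), and without KO 1 and KO 4 it was -0.22 with 0.147.

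The exporter varied more between mice than between groups. Slc40a1 (ferroportin, chr1:45908068-45926523, minus strand, 8 exons) encodes the known cellular iron exporter, abundant in red pulp macrophages of the spleen, and carries the 5′ element printed above. It stood at 7.30, 4.30, 3.56, 11.9 and 5.50 CPM in WT 1 to WT 5. In KO 1 to KO 4 it stood at 12.2, 3.01, 3.41 and 23.1 CPM. KO 4 was the highest library and KO 2 and KO 3 were the lowest, so the KO values lay on both sides of the WT values. On the log2 scale the difference was 0.69 ± 0.68 (SE, 95% interval -0.89 to 2.27), with an edgeR adjusted p of 0.593. Its direction turned with the libraries kept: -0.05 without KO 4, and -1.02 without KO 1 and KO 4 (edgeR adjusted p = 0.438).

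Red pulp macrophage and monocyte markers moved in the same libraries. Their 12 genes, of which Fcgr1 alone was at 0 in some library, summed to 101 CPM in KO 1 and 157 in KO 4. WT 1 had 84.4 CPM, and the other 6 libraries had 28.7 to 51.4. Of these markers 11 entered the test and 0 were called by edgeR, DESeq2 or limma-voom, with 0 at an unadjusted edgeR p under 0.05. The 2 libraries highest in Slc40a1, KO 4 and KO 1, were the 2 highest in this sum. WT 4 had 11.9 CPM of Slc40a1 at a sum of 51.4, and KO 3 had 3.41 at 51.0. The sums of WT 4 and KO 3 were not made of the same genes. Lyz2 (12.35 CPM in WT 4 and 20.98 in KO 3), Adgre1 and Cd68 were higher in KO 3. The other markers of this list, such as Vcam1 (9.46 CPM in WT 4 and 5.83 in KO 3), were higher in WT 4, as Slc40a1 was. The part of macrophages and monocytes in the Slc40a1 values was not tested.

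**Figure D4:**
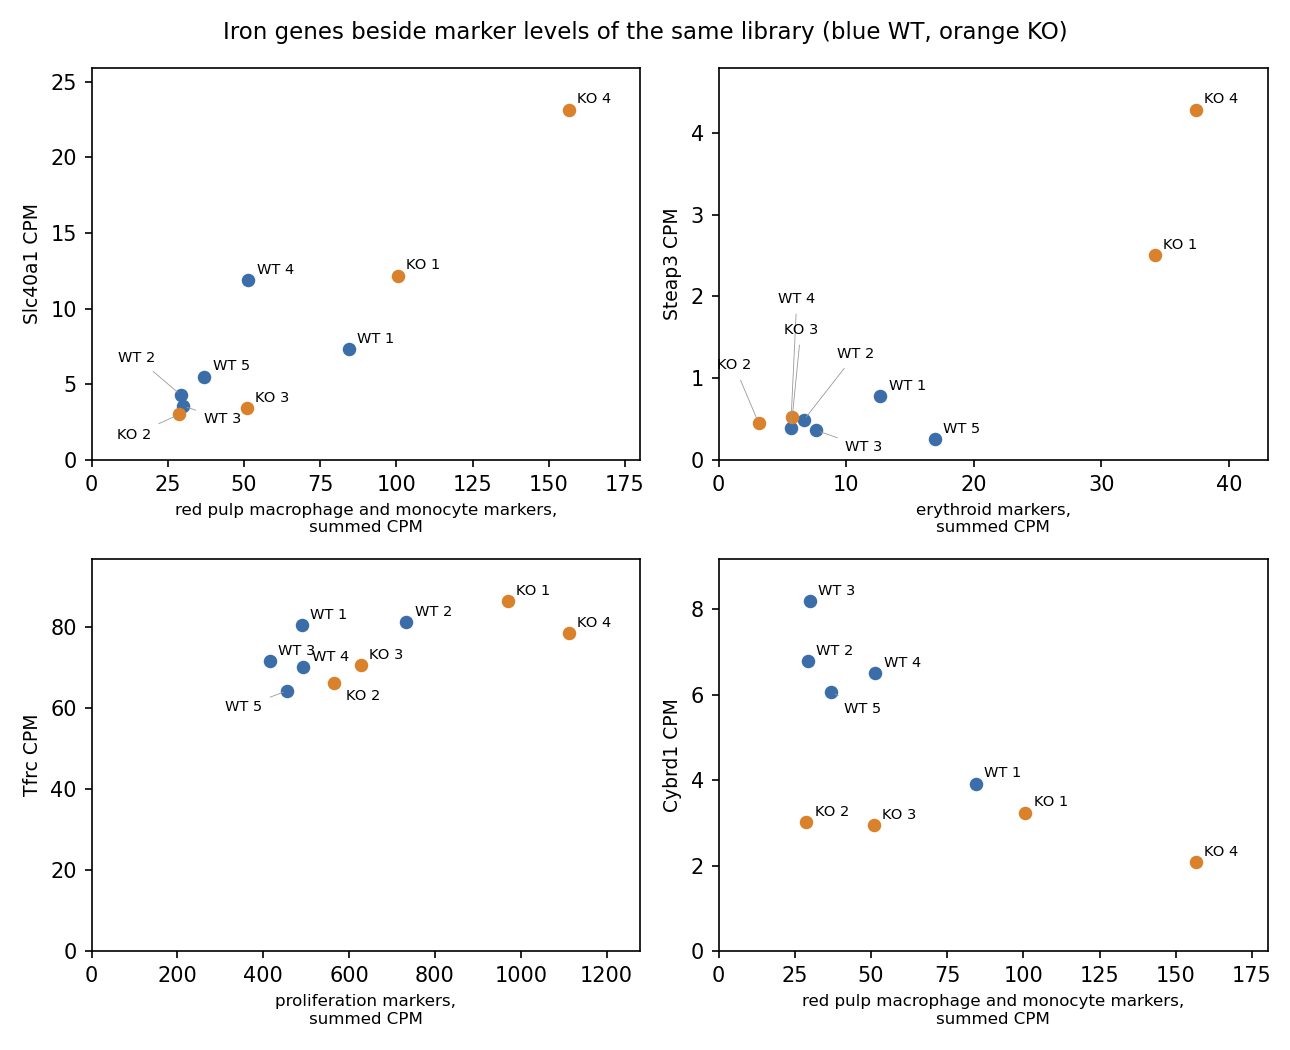
CPM of Slc40a1, Steap3, Tfrc and Cybrd1 (vertical axes) against the summed CPM of a marker list in the same library (horizontal axes), 1 point per mouse, WT blue and KO orange. KO 4 and KO 1 lie far right for macrophage, erythroid and proliferation markers, and KO 2, at the left edge of the Cybrd1 panel with a marker sum of 28.7 CPM, has 3.01 CPM of Cybrd1.

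In the list of iron export and the hepcidin axis, 3 of 10 genes entered the test and 0 were called by edgeR, with 1 at an unadjusted p under 0.05 (21.6% of all tested genes). That gene, B2m, is the light chain shared by MHC class I and the haemochromatosis protein Hfe, and stood at 2329 ± 93.8 CPM in WT and 2601 ± 108 in KO (log2 fold change 0.16 ± 0.04, edgeR adjusted p = 0.0568). All KO libraries were above all WT libraries for B2m, while 9.07% of all tested genes had groups that did not overlap in either direction. DESeq2 called B2m and limma-voom did not. Neo1, a coreceptor of the hepcidin pathway, was rare at 1.69 ± 0.505 and 1.35 ± 0.134 CPM (-0.32 ± 0.24, edgeR adjusted p = 0.476), and its value without WT 2 was -0.17. Heph, Cp and Hamp, the oxidases and the hormone of iron export, had at most 0.362 CPM in any library.

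Mitochondrial import is represented by Slc25a37 (mitoferrin, chr14:69241848-69285112, minus strand, 4 exons), a carrier of the inner membrane known from red cell precursors. It stood at 83.0, 80.3, 93.1, 84.7 and 88.4 CPM in WT 1 to WT 5 and at 75.5, 91.4, 75.2 and 76.4 CPM in KO 1 to KO 4. KO 2 lay among the WT libraries and the other 3 KO libraries lay below all of WT. Its log2 fold change was -0.11 ± 0.06 (SE, 95% interval -0.25 to 0.03), with an edgeR adjusted p of 0.338. It was -0.18 without KO 2, still not called, with an adjusted p of 0.0604 in edgeR, and -0.05 without KO 1 and KO 4. Antisense gene models overlap Slc25a37, so its count has the same uncertainty of strand as that of Slc11a2.

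The partner carrier Slc25a28 (mitoferrin of most tissues) stood at 35.4 ± 1.60 CPM in WT and 32.4 ± 0.264 in KO (-0.13 ± 0.05, edgeR adjusted p = 0.148). All KO libraries of Slc25a28 were below all WT libraries, as for 4.92% of all tested genes. It belongs to the list of mitochondrial iron and iron-sulfur assembly, in which 21 genes entered the test and 0 were called by edgeR, DESeq2 or limma-voom. An unadjusted edgeR p under 0.05 was reached by 4 of them, and by 21.6% of all tested genes. Of these 21, 16 had a log2 fold change above 0, with a median of 0.05, against 51.5% of all tested genes above 0, and without KO 1 and KO 4 they were 12 of 21, with a median of 0.02. Abcb8, a mitochondrial ABC transporter, stood at 27.3 ± 0.606 and 31.0 ± 3.31 CPM (0.18 ± 0.07, edgeR adjusted p = 0.148), with KO 2 (26.6 CPM) inside the WT range. Without KO 1 and KO 4 the value of Abcb8 was 0.05.

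In cytosolic iron-sulfur assembly 9 genes entered the test and 0 were called by edgeR, DESeq2 or limma-voom. An unadjusted edgeR p under 0.05 was reached by 3 of them, and by 21.6% of all tested genes. The smallest p belonged to Fam96b (also named Ciao2b), a targeting factor of that machinery, at 23.9 ± 0.776 CPM in WT and 26.5 ± 1.30 in KO (0.15 ± 0.05, edgeR adjusted p = 0.145). Its partner Mms19 stood at 148 ± 6.34 and 138 ± 3.27 CPM (-0.10 ± 0.04, edgeR adjusted p = 0.186).

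Ferritin transcripts, which encode the storage shell, were the most abundant of the members. Fth1 (heavy chain with the ferroxidase site, chr19:9980598-9985098, plus strand) stood at 395.8, 421, 339.5, 337 and 335 CPM in WT 1 to WT 5 and at 379, 359.8, 369.9 and 384 CPM in KO 1 to KO 4. The KO values fell inside the WT range, where WT 1 and WT 2 were high. Means were 366 ± 40.1 CPM in WT (SD, n = 5) and 373 ± 10.8 in KO (SD, n = 4), with a log2 fold change of 0.03 ± 0.07 (SE, 95% interval -0.12 to 0.18) and an edgeR adjusted p of 0.843. Without WT 1 the log2 fold change was 0.06. Fth-ps2, a processed copy of Fth1, had 46 counts in WT 2 and 3 to 12 in the other libraries, small beside the 5136 to 6961 counts of Fth1.

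Ftl1 (light chain, chr7:45457944-45459884, minus strand) stood at 209, 182, 172, 182 and 182 CPM in WT 1 to WT 5 and at 168, 173, 175 and 185 CPM in KO 1 to KO 4. WT 1 was the highest library and the groups overlapped. The KO over WT log2 fold change was -0.08 ± 0.05 (SE, 95% interval -0.20 to 0.04), with an edgeR adjusted p of 0.408. Without WT 1 it was -0.03. Since ferritin elements act on translation, transcript levels do not report how much ferritin protein the cells held.

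Ratios between members within a library compare levels per kilobase (CPM divided by the length of the principal transcript). The ratio of Fth1 to Ftl1 was 1.28 ± 0.128 in WT (SD, n = 5) and 1.38 ± 0.0534 in KO (SD, n = 4). It ran from 1.19 to 1.50 in WT and from 1.35 to 1.46 in KO, so all KO values lay inside the WT range. The ratio of summed ferritin to Tfrc, storage over uptake, was 29.0 ± 1.43 in WT and 28.2 ± 2.96 in KO, with KO 1 lowest at 24.2.

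Among iron chaperones and genes of ferritin turnover, 7 of 8 listed entered the test and 0 were called by edgeR, DESeq2 or limma-voom. An unadjusted edgeR p under 0.05 was reached by 3 of them, and by 21.6% of all tested genes. Glrx3, a glutaredoxin that carries iron-sulfur clusters, stood at 42.2 ± 2.87 CPM in WT and 46.2 ± 1.73 in KO, with all KO libraries above all WT libraries (0.13 ± 0.06, edgeR adjusted p = 0.197). Groups did not overlap, in either direction, for 9.07% of all tested genes. Pcbp1, which delivers iron to ferritin, stood at 204 ± 10.9 and 220 ± 10.3 CPM (0.10 ± 0.05, edgeR adjusted p = 0.218).

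The sensors held similar levels in both groups. Aco1 (iron-regulatory protein and cytosolic aconitase, chr4:40143081-40198338, plus strand, 21 exons) stood at 45.8, 44.4, 43.8, 43.2 and 47.5 CPM in WT 1 to WT 5 and at 43.4, 46.0, 48.4 and 45.6 CPM in KO 1 to KO 4. Its log2 fold change was 0.03 ± 0.05 (SE, 95% interval -0.08 to 0.13), with an edgeR adjusted p of 0.769. Without KO 1 and KO 4 it was 0.07. Ireb2 (the second iron-regulatory protein, chr9:54863789-54912530, plus strand, 22 exons) stood at 97.6, 110.2, 123, 115 and 116 CPM in WT 1 to WT 5 and at 110.0, 113, 113 and 108 CPM in KO 1 to KO 4. The KO values of both genes overlapped those of WT, with WT 1 the lowest library for Ireb2. For Ireb2 the log2 fold change was -0.02 ± 0.06 (SE, 95% interval -0.14 to 0.11), with an edgeR adjusted p of 0.892. Per kilobase of principal transcript Ireb2 exceeded Aco1 by 1.66 ± 0.168-fold in WT and 1.61 ± 0.0580-fold in KO. The size of this ratio depends on the length used. With all annotated exons as length, WT means were 11.9 for Ireb2 and 9.99 for Aco1, and WT 1 stood at 10.3 and 10.2.

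Genes that act on these sensors or on the decay of Tfrc RNA were taken as a list, of which 13 entered the test. By edgeR 0 were called, with 5 at an unadjusted p under 0.05 (21.6% of all tested genes), limma-voom called 0 and DESeq2 called Bach1. Bach1, the haem-sensing repressor of ferritin and haem oxygenase genes, stood at 39.8 ± 1.21 CPM in WT and 34.8 ± 2.16 in KO (-0.20 ± 0.05, edgeR adjusted p = 0.0593). Fbxl5, the iron-sensing ubiquitin ligase subunit that removes Ireb2 protein, stood at 92.5 ± 2.60 and 85.9 ± 0.781 CPM (-0.11 ± 0.04, edgeR adjusted p = 0.112). All KO libraries lay below all WT libraries for both genes, as for 4.92% of all tested genes, and both were named for the smallest p of their list.

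Haem, the iron porphyrin of cytochromes and other enzymes, was read from 2 lists. In haem synthesis 11 genes entered the test and 1 was called, lower in KO: Ppox, the mitochondrial oxidase of the penultimate step. It stood at 93.6, 82.1, 90.6, 87.9 and 86.2 CPM in WT 1 to WT 5 and at 78.7, 77.3, 77.8 and 79.1 CPM in KO 1 to KO 4. All KO libraries were below all WT libraries, as for 4.92% of all tested genes, with WT 2 nearest to them. The log2 fold change was -0.17 ± 0.04 (SE) with an edgeR adjusted p of 0.0469, close to the threshold, and it stayed called in 1 of the 9 fits that left out 1 library (-0.20 to -0.15, edgeR adjusted p 0.0213 to 0.129). Without KO 1 and KO 4 its call was lost, at -0.19 with an edgeR adjusted p of 0.154. Of the 11 genes 8 were above 0, with a median log2 fold change of 0.16, and without these 2 libraries 3 of 12 were above 0, with a median of -0.04.

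In haem transport and breakdown 10 genes entered the test, all 10 with a log2 fold change above 0 (median 0.14, beside 51.5% of all tested genes above 0). By edgeR, DESeq2 or limma-voom 0 were called, and 2 had an unadjusted edgeR p under 0.05 (21.6% of all tested genes). Those with the smallest p were Blvra, biliverdin reductase, at 22.0 ± 0.915 CPM in WT and 25.6 ± 2.58 in KO (0.22 ± 0.07, edgeR adjusted p = 0.110), and Slc48a1, the lysosomal haem transporter, at 46.6 ± 1.42 and 51.0 ± 2.36 CPM (0.13 ± 0.05, adjusted p = 0.131). Without KO 1 and KO 4, 5 of the 10 were above 0, with a median of -0.02, and Blvra was at 0.11 (edgeR adjusted p = 0.582). Hmox1, haem oxygenase, reached 22.8 CPM in KO 1 and 36.2 in KO 4 against 5.43 to 13.3 in the other libraries, the same libraries in which macrophage markers were high. That gene is named after its values were seen, and the part of these cells was not tested. Over all wider lists, 86 of 106 genes entered the test and 2 (Mcoln1 and Ppox) were called, both lower, beside 3.28% of all tested genes.

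Levels of the members per kilobase spanned a wide range in WT Treg cells. Fth1 stood highest at 245 ± 26.8 CPM per kilobase (SD, n = 5), then Ftl1 at 191 ± 14.6, with no overlap between libraries. A middle group followed: Slc25a37 at 20.6 ± 1.19, Ireb2 at 19.5 ± 1.63, Tfrc at 15.1 ± 1.48, Slc11a2 at 14.2 ± 0.606 and Aco1 at 11.7 ± 0.458. Slc40a1 at 1.93 ± 0.986 and Cybrd1 at 1.18 ± 0.290 overlapped, and Steap3 was last at 0.0882 ± 0.0392. In the middle group, Slc25a37 overlapped Ireb2 and Tfrc overlapped Slc11a2, whereas at these lengths Ireb2 lay above Tfrc and Slc11a2 above Aco1 in all 5 libraries. The order of 4 pairs depends on the length used. With the union of annotated exons as length, Ftl1 (138) passed Fth1 (105), Cybrd1 (1.18) passed Slc40a1 (0.723) and Aco1 (9.99) passed Slc11a2 (6.76). Tfrc (11.9) and Ireb2 (11.9) then overlapped, with Tfrc the higher in WT 1 and WT 2.

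The members also differed in spread between mice. Across WT the coefficient of variation of CPM was 3.91% for Aco1 and 4.27% for Slc11a2, 24.6% for Cybrd1, 44.5% for Steap3 and 51.0% for Slc40a1. In KO it was 1.98% for Ireb2 and 2.89% for Fth1, against 90.7% for Slc40a1 and 94.3% for Steap3. The members with the widest spread were the rarest, and for Slc40a1 the spread between mice was far wider than the counting intervals, which ran from 20.9 to 25.6 CPM in KO 4 and from 2.21 to 4.01 in KO 2.

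The surroundings of Cybrd1 were examined because the groups may differ in strain along a chromosome. Within 500 kb of the gene, 8 genes entered the test and 0 were called by edgeR, DESeq2 or limma-voom, with 5 at an unadjusted edgeR p under 0.05 (21.6% of all tested genes). The nearest, Dcaf17 (a ubiquitin ligase substrate receptor), stood at 48.6 ± 3.63 CPM in WT and 42.3 ± 2.31 in KO (-0.20 ± 0.06, edgeR adjusted p = 0.0990), and the next on that side, Mettl8 (an RNA methyltransferase), at 28.4 ± 1.16 and 25.2 ± 2.09 CPM (-0.17 ± 0.06, adjusted p = 0.135). On the other side Dync1i2, a dynein chain, was at 0.09 ± 0.04 (adjusted p = 0.229) and Slc25a12, a mitochondrial aspartate carrier, at -0.0084 ± 0.04 (adjusted p = 0.924). Further out, Tlk1 was at -0.10 (edgeR adjusted p = 0.139), Gorasp2 at 0.10 (0.209), Hat1 at 0.11 (0.433) and Metap1d at -0.12 (0.297). In size, the log2 fold change of Cybrd1 was thus larger than that of each of its 8 tested neighbours. The part of strain in it was not tested.

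**Figure D5:**
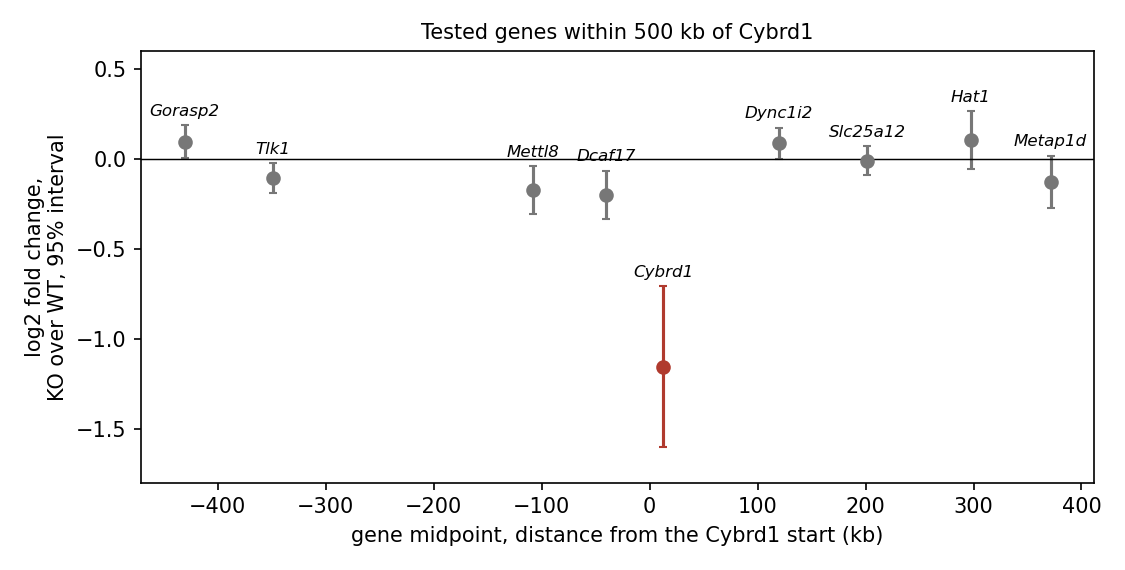
Log2 fold change, KO over WT, with the 95% interval (vertical axis) for Cybrd1 (red) and the 8 tested genes within 500 kb (grey), placed by the distance of each gene's midpoint from the start of Cybrd1 in kilobases (horizontal axis). The neighbours lie between -0.20 and 0.11, and Cybrd1 lies at -1.15.

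Promoters of 7 members (12 windows of 250 bases before to 50 after a start, RefSeq, GRCm38.p6) were searched on both strands for the short motif bound by estrogen-related receptors. The letters TCAAGGTCA, held by 0.423% of 32851 promoters, and AAGGTCA, held within them and by 4.72%, were found in 0 of the 12 windows. This says only that these letters were not in these windows, the one of Cybrd1 included.

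The genes whose levels followed Cybrd1 and Tfrc most closely from mouse to mouse were taken by the Pearson r of log2 CPM deviations from the group means over 9 libraries, so that the difference between the groups does not enter. For Cybrd1, of 8783 genes compared, these were Rpl7l1 (r = 0.961), Gimap1 (0.956), Snx18 (0.952), Il2ra (0.951), a chain of the interleukin-2 receptor, and Cfl2 (0.938). For Tfrc, of 8782 genes compared, they were Samsn1 (r = 0.983), Mms22l (0.971), 1110004F10Rik (0.965), Fam92a (0.964) and Gapdh (0.953). These values are the highest of all genes compared, over few libraries that share depth and the deviations of WT 1, KO 1 and KO 4, and are given as a description.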

How the data were processed

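Raw counts by gene symbol, in 1 table deposited by the authors, are whole numbers with unequal totals over the 5 WT and 4 KO libraries of individual mice. Libraries were stranded TruSeq, per the labels' protocols. STAR 2.7, DESeq2 and the build mm10 appear in the submitters' processing notes without their roles. Which program and annotation made the counts, and whether strand was used, was not given in the sources used here, and reads shared by overlapping genes or copies cannot be assigned with certainty. Samples were grouped by their titles, and all columns matched 1 sample each. No 2 libraries agreed within sampling noise (chi-square per degree of freedom 2.6 for the closest pair).

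The members and all gene lists were chosen with earlier results of these data known. Counts were fitted over the whole table with edgeR 4.0.16 in R 4.3.3 (trimmed-mean scaling, default filter on the groups, robust quasi-likelihood test, KO against WT), with Benjamini-Hochberg adjustment over all 12738 tested genes and a threshold of 0.05. Each p weighs the difference between the groups against the spread between mice, which is estimated partly from other genes. It cannot separate genotype from strain or colony. SE values are the log2 fold change over the root of the F statistic. The fit was tested on simulated data. Log2 CPM used a prior count of 2. Symbols were placed on mm10 with GENCODE M21 (24746 by name, 619 through a RefSeq synonym, 1318 not placed), and levels per kilobase used the principal transcript. Of the wider iron lists, 101 of 106 symbols were in the table.

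Named genes were all 10 members; from each wider list up to 3 called genes, or else the 2 of smallest p; each tested gene within 500 kb of Cybrd1; and for Cybrd1 and Tfrc the 5 genes of mean CPM of at least 10 with the highest r. Alternatives were other scalings and filters, DESeq2 1.42.0, limma-voom (limma 3.58.1), replicate blocks, and libraries left out singly or together.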

Additional observations from a re-analysis of the deposited data

Results flagged for a closer look

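Of 68 groups of CPM values examined (named genes, WT and KO apart), 8 held a library whose gap to the nearest other exceeded Dixon's critical value, when chance gives about 1 in 20. Among the members, Slc11a2 in WT 1 stood at 46.1 CPM against 41.7 to 42.8 in the other WT libraries (gap over range 0.736). Slc25a37 in KO 2 stood at 91.4 CPM against 75.2 to 76.4 in the other KO libraries (0.924). Ftl1 in WT 1 stood at 209.3 CPM against 171.6 to 182.1 (0.721).

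Among other iron genes, Mcoln1 in KO 2 stood at 56.9 CPM against 53.2 to 53.6 (0.89), and B2m in KO 1 at 2761 CPM against 2524 to 2562 (0.837). Among the neighbours of Cybrd1, Mettl8 stood at 30.4 CPM in WT 1 against 27.5 to 28.2 (0.771) and at 28.3 CPM in KO 3 against 23.9 to 24.5 (0.867), and Dcaf17 stood at 42.3 CPM in WT 1 against 49.1 to 51.1 (0.776). Of the 8 flags, 4 fell on WT 1, the library with high activation and dissociation genes.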

How the results depend on the processing

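Cybrd1 was lower in KO under each alternative that gave it a value, and lost its call under the replicate block by title number and without KO 1 and KO 4. A filter at a mean CPM of at least 5 removed it, leaving 0 members called. Members called were 2 with DESeq2 (Cybrd1 and Steap3) and 0 without KO 1 and KO 4. Genes called over the table were 418 by the reported test, 888 with DESeq2, 118 without KO 1 and KO 4, 250 without WT 1, KO 1 and KO 4, and 95 to 643 when 1 library was left out. Wider iron genes called were 4 with DESeq2, 4 with the filter at mean CPM 5, 1 (Mcoln1) with limma-voom, without a filter and without robust estimation, 1 (Cd163, not called by the reported test) without WT 1, KO 1 and KO 4, 0 without KO 1 and KO 4, and 0 to 4 when 1 library was left out. Samples of the same number share only a number: correlations of their deviations ran from -0.07 to 0.10 for title numbers (1 of 8 libraries best with its own) and from -0.26 to 0.10 for bracketed numbers (0 of 8). Under the replicate block by title number 26 genes, 0 members and 0 wider iron genes were called (Cybrd1 -1.14, edgeR adjusted p = 0.129), and under the block by bracketed number 443, 1 and 2 (Mcoln1 and Hif1a, Ppox being lost). Signs turned for uncalled genes: Tfrc (-0.013 with the title block, -0.11 without KO 1 and KO 4, -0.077 without WT 1 as well, -0.037 to 0.093 when 1 library was left out, below 0 at -0.0086 without WT 5), Ireb2 (8.43e-05 with the title block, 0.0031 without KO 1 and KO 4, -0.065 to 0.016 when 1 was left out), Slc11a2 (-0.018 without KO 1 and KO 4, -0.028 to 0.039 when 1 was left out, -0.00098 without WT 2), Fth1 (-0.0063 without KO 1 and KO 4, -0.00098 to 0.081 when 1 was left out), Cyb561a3 (-0.0011 without KO 1 and KO 4) and Slc40a1 (-1.02 without KO 1 and KO 4, -0.97 without WT 1 as well, -0.051 without KO 4 to 1.02 without WT 4). The cause of these shifts was not tested. Depth limits Steap3, at 4 to 13 counts in WT, and Cybrd1, at 34 to 136 counts.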
